A study of Homo sapiens with 6 samples.

Results

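The MYC gene and the gene-poor stretch of chromosome 8 around it were described in H1299, an established human line of non-small cell lung cancer, by the deposited peaks of chromatin immunoprecipitation followed by sequencing (ChIP-seq). The libraries compared were 2 made with an anti-YAP antibody (YAP replicates 1 and 2) and 2 made with an anti-TAZ antibody (TAZ replicates 1 and 2); the 2 input libraries entered only as the background of the deposited lists. All the cells were of this 1 line and had been kept without serum for 18 hours, and no group was treated otherwise. The labels do not say that replicates came from separate cultures, so the spread between libraries may be technical. The members are the peaks of the 4 lists with a midpoint on chromosome 8 between 126500000 and 131000000 (build hg19, positions counted from 1), an interval of 4.5 Mb that holds MYC from 128748315 to 128753680. There were 677 and 645 such peaks in YAP libraries, against 564 and 517 in TAZ libraries, 2403 of the 1389618 peaks on chromosomes 1 to 22 and X in all 4 lists.

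MYC encodes a transcription factor of the basic helix-loop-helix leucine zipper class that drives cell growth and division, and it is one of the most often amplified genes in human cancer. Its neighbourhood is a gene desert rich in long noncoding RNAs and in enhancers that contact the MYC promoter over long distances, different ones in different tissues. PVT1, the noncoding RNA gene that follows MYC, shares enhancers with it, and its promoter has been described as a competitor of the MYC promoter in breast cancer cells. YAP and TAZ are coactivators of the Hippo pathway that do not bind DNA themselves and reach it through TEAD factors, largely at distal enhancers, and MYC has been described among the genes they activate. In the RefSeq table (build GRCh38.p14, used for names and order only) the protein-coding genes before MYC are TRIB1, LRATD2 and POU5F1B, and those after it are GSDMC, CYRIB and ASAP1. The noncoding genes PCAT1, PRNCR1, CCAT1, CASC8, CCAT2 and CASC11 precede MYC, and PVT1, LINC00824, LINC00977 and CCDC26 follow it.

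A deeper library gives a longer list, and read depth is unknown here. The YAP lists held 392120 and 353336 entries, the TAZ lists 333505 and 310657. Numbers of peaks are therefore given per 10000 peaks of the same list, called the peak share. Strong peaks are the 20000 peaks of each list with the highest −log10 q, the peak caller's measure of confidence. Fold is the ratio of ChIP to input over a peak, as the authors deposited it. With 2 libraries against 2, the smallest p of the exact two-sided permutation test is 0.333, so no difference between the antibodies could pass a threshold of 0.05.

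The MYC promoter carried no YAP peak and a weak TAZ peak. Within 1000 bases of the MYC start, neither YAP library had a deposited peak, and both TAZ libraries had 1. The peak of TAZ replicate 1 ran from 128748209 to 128748771 at fold 2.51, its −log10 q being 1.77. The peak of TAZ replicate 2 ran from 128746294 to 128751137 at fold 2.68, its −log10 q being 2.03. Both covered the MYC start, and both were far down their lists, at rank 282244 of 333505 and rank 215261 of 310657. The presence of a peak separated the antibodies (exact two-sided permutation p = 0.333). Over all 2 kb tiles with any peak, 1.76% had peaks in both TAZ and no YAP library, and 6.22% the reverse. A promoter of 2500 bases on either side of the start met a peak in all 4 libraries, so the difference did not hold for the wider definition. The YAP peak met there ended 2430 bases before the start in replicate 1, and began 2062 bases after it in replicate 2.

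Inside the gene the antibodies differed in covered length, in part through the same promoter peaks. Those peaks ended 456 bases after the MYC start in TAZ replicate 1 and 2822 bases after it in TAZ replicate 2. The covered length is therefore not a separate observation. Peaks covered 8.39% and 16.6% of the 5366 bases of MYC in the YAP libraries, against 47.1% and 64.0% in the TAZ libraries. The groups did not overlap. Beside the low promoter peaks just named, TAZ replicate 1 had a peak from 128749876 to 128751206 at fold 2.33. YAP replicate 2 had a peak there too, from 128750377 to 128750914, at fold 2.38 with −log10 q 1.65. A further peak late in the gene was present in all 4 libraries, with both TAZ peaks wider than both YAP peaks. It ran from 128752141 to 128752590 in YAP replicate 1 at fold 4.01, and from 128752210 to 128752562 in YAP replicate 2 with 3.03. In TAZ replicate 1 it ran from 128752225 to 128752963 at fold 2.78, and in TAZ replicate 2 from 128752206 to 128752814 with 2.98. Only the peak of YAP replicate 1 was strong, at rank 14459.

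Just before the promoter, both antibodies marked the same places. The nearest peak wholly upstream of the MYC start in all 4 libraries, chosen here after its values were seen, lay from 128743210 to 128745885 in YAP replicate 1 and from 128743264 to 128745757 in YAP replicate 2. It lay from 128743197 to 128745796 in TAZ replicate 1 and from 128743236 to 128744721 in TAZ replicate 2. Its fold was 3.19 and 2.77 in YAP libraries, against 4.10 and 3.93 in TAZ libraries. Both TAZ values lay above both YAP values, and this peak was strong in the TAZ libraries only. A narrower peak farther upstream, from 128736198 to 128737179 in YAP replicate 1 and chosen in the same way, was strong in 3 of the 4 libraries. Its fold was 3.63 and 5.07 with YAP, against 3.95 and 4.34 with TAZ, with overlapping groups. Its rank was 51981 and 454 in YAP libraries, against 19871 and 2662 in TAZ libraries.

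**Figure D1:**
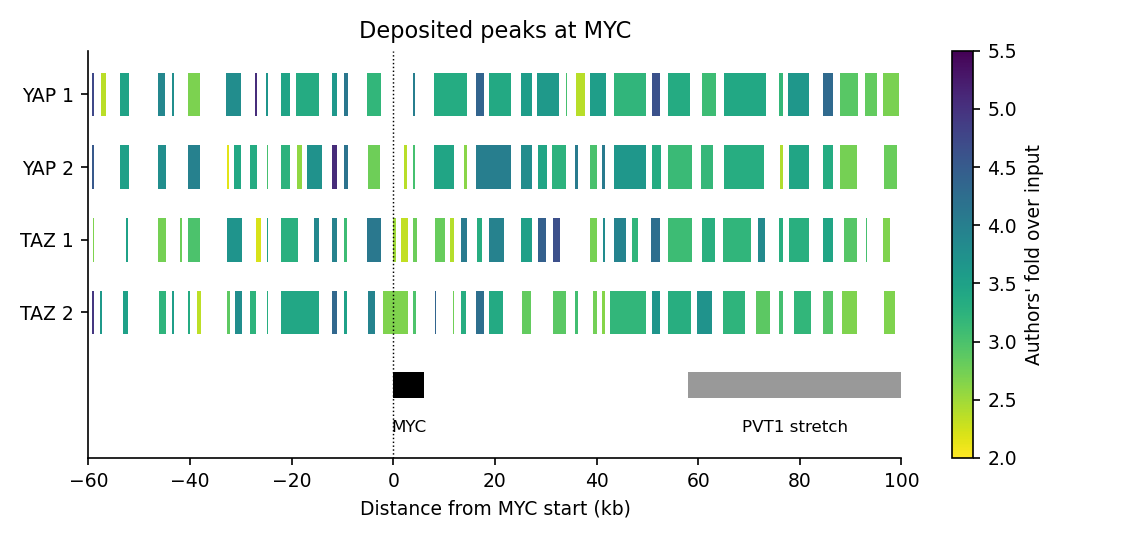
Deposited peaks of the 4 libraries (rows) by distance from the MYC start in kb, coloured by the authors' fold over input, with the MYC gene in black and the first part of the PVT1 stretch in grey. Both YAP rows are empty at the MYC start, where the TAZ rows have peaks with a fold of 2.51 and 2.68. Between MYC and PVT1, peaks cover 67.2% and 60.5% of the bases in the YAP rows, against 45.5% and 46.4% in the TAZ rows.

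Averaged over the 4 libraries, the space between MYC and PVT1 was the best covered of the 5 stretches. From the end of MYC to the PVT1 stretch, 52.3 kb, deposited peaks covered 67.2% and 60.5% of the bases in YAP libraries, against 45.5% and 46.4% in TAZ libraries. Over the rest of chromosome 8 the same lists covered 15.4% and 13.4% with YAP, against 11.5% and 11.8% with TAZ. The coverage was 4.35 and 4.51 times that of the rest of the chromosome in the YAP libraries, and 3.96 and 3.92 times in the TAZ libraries. It was higher in 4 of 4 libraries (exact two-sided sign-flip permutation p = 0.125, the smallest that 4 libraries allow; 0.148 after Benjamini-Hochberg adjustment over 19 tests of stretches against the chromosome, which were chosen after seeing the data). The peaks there were wide, at a median of 3030 and 1922.5 bp with YAP, against 1538.5 and 1527 bp with TAZ. Their fold was not high, at a median of 3.39 and 3.44 with YAP, against 3.67 and 3.20 with TAZ.

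Between the antibodies, this space held longer YAP coverage but more TAZ peaks by count. YAP coverage averaged 63.8% ± 4.8 and TAZ coverage 45.9% ± 0.59 (SD, n = 2; exact two-sided permutation p = 0.333, adjusted p = 0.417 over 5 stretches). The libraries held 11 and 12 YAP peaks, against 14 and 13 TAZ peaks. In peak share this was 0.281 and 0.340 with YAP, against 0.420 and 0.418 with TAZ, again without overlap of the groups. Strong peaks numbered 2 and 2 with YAP, against 4 and 3 with TAZ. A wide peak of one list could be met by several peaks of another. That of YAP replicate 1 from 128756394 to 128762872 was met in TAZ replicate 1 by peaks from 128756554, 128759493 and 128761628. More peaks are therefore not necessarily more places, and the part of such splitting in these counts was not tested. When overlapping deposited peaks of the 4 lists were merged, 8 of 9 merged regions here had a peak in all 4 lists, against 39.2% of merged regions over the genome. The merged regions here were also wide, and the part of width in this share was not tested.

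The PVT1 stretch, from 128806000 to 129114000, was also well covered, and the antibodies overlapped there in coverage. Peaks covered 34.0% and 28.6% of it in YAP libraries, against 29.4% and 34.6% in TAZ libraries, with overlapping groups (exact two-sided permutation p = 0.667). This was 2.20 and 2.13 times the coverage of the rest of chromosome 8 for YAP, and 2.56 and 2.93 times for TAZ (higher in 4 of 4 libraries, exact sign-flip permutation p = 0.125, adjusted p = 0.148). The stretch held 64 and 58 YAP peaks and 55 and 58 TAZ peaks. Of these, 9 and 4 YAP peaks and 7 and 7 TAZ peaks were strong. The peak share was 1.63 and 1.64 with YAP, against 1.65 and 1.87 with TAZ, higher with TAZ without overlap (exact permutation p = 0.333). YAP minus TAZ was -0.121 in peak share, and 0.0322 with lists shortened to equal length. The median width was 1281.5 and 1185 bp with YAP, against 1173 and 1464.5 bp with TAZ. Over the rest of the chromosome it was 519 and 520 bp with YAP, against 520 and 554 bp with TAZ. Of 61 merged regions, 43 had a peak in all 4 lists (70.5%; 39.2% over the genome). Peaks in both YAP lists alone were at 3 (6.87% over the genome) and in both TAZ lists alone at 0 (1.44% over the genome). The counts of 3 and 0 are too small to be told from those shares. The part of peak width in these counts was not tested.

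Coverage fell off along PVT1. The window of 100 kb from 128800001, which holds the beginning of the stretch, was covered to 53.0% and 45.8% in YAP libraries, against 45.3% and 51.7% in TAZ libraries. The next window, from 128900001, had 33.5% and 26.5% with YAP, against 31.5% and 31.9% with TAZ. The window from 129000001 had 20.3% and 18.9% with YAP, against 16.4% and 23.0% with TAZ, and that from 129100001 had 14.4% and 11.3% with YAP, against 13.9% and 19.7% with TAZ. The fall was seen in every library. Past PVT1, in the window from 129300001, coverage was 3.99% and 2.87% with YAP, against 2.11% and 1.64% with TAZ, the lowest of any window after MYC in the YAP libraries. The longest run without a peak of any library, 36.3 kb from 129323195 to 129359524, lay in that window.

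**Figure D2:**
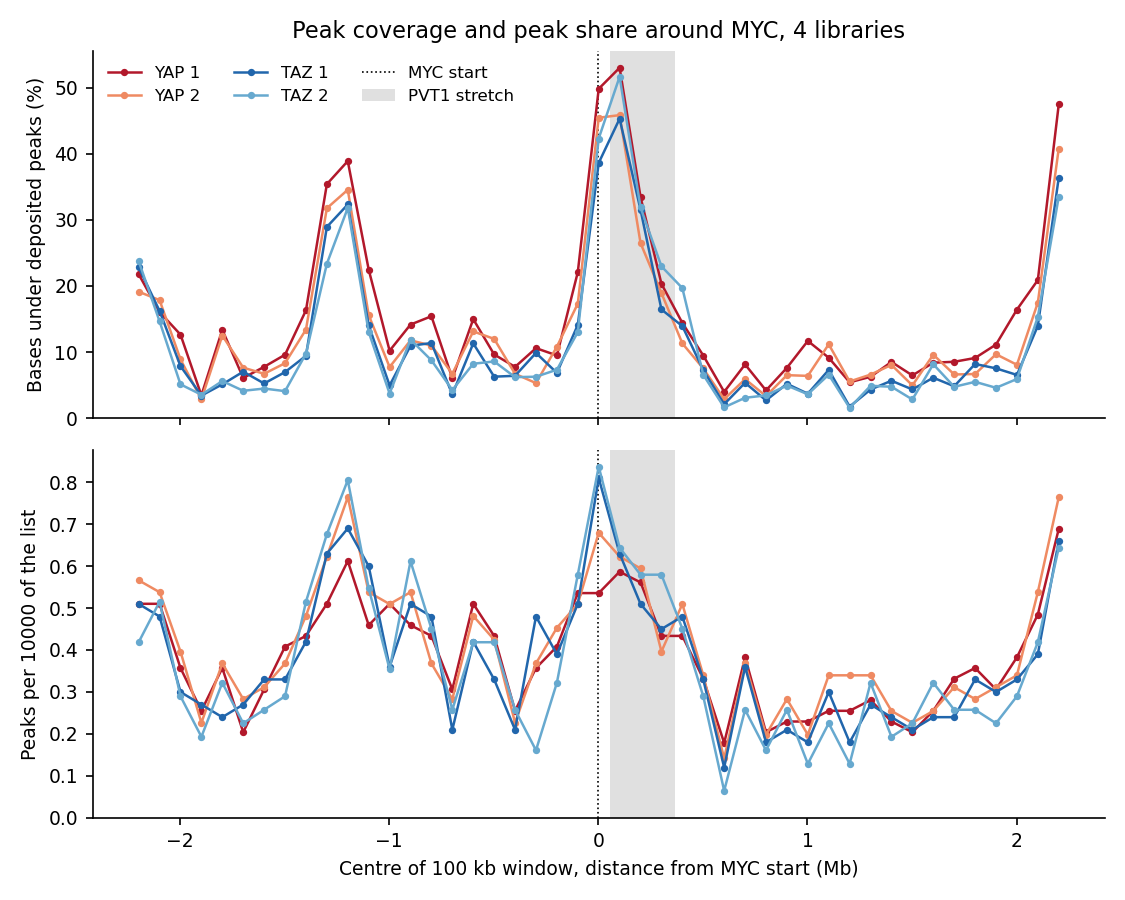
Percent of bases under deposited peaks (upper panel) and peaks per 10000 of the list (lower panel) in 45 windows of 100 kb, by distance of the window's centre from the MYC start in Mb, 1 line per library. All 4 lines rise together at MYC and the first part of PVT1, about 1.2 Mb before MYC and at the end of the interval; in the lower panel the TAZ lines lie above the YAP lines at MYC.

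Upstream of MYC, over 2247 kb, peaks were plentiful but narrow. Coverage was 15.3% and 13.3% with YAP, against 11.7% and 10.7% with TAZ, near that of the rest of the chromosome, to which its ratio was 0.988 and 0.992 with YAP, against 1.01 and 0.901 with TAZ. The number of peaks per Mb was 164 and 157 with YAP, against 138 and 128 with TAZ. That was above the rest of the chromosome in 4 of 4 libraries, 1.21 times on average (exact sign-flip permutation p = 0.125, adjusted p = 0.148). The median width was 461 and 433.5 bp with YAP, against 448.5 and 417.5 bp with TAZ, below the rest of the chromosome in 4 of 4 libraries. The peak share was 9.41 and 9.96 with YAP, against 9.30 and 9.27 with TAZ, a difference of 0.40 in the means (exact permutation p = 0.333). It was 0.127 without YAP replicate 2 and 0.679 without YAP replicate 1, and -0.52 at q-values up to 0.01. Strong peaks numbered 41 and 57 with YAP, against 36 and 44 with TAZ, with overlapping groups. The difference of 9 in the means was 17 without YAP replicate 1, 1 without YAP replicate 2 and 5 without TAZ replicate 1.

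The upstream desert was not even. Its fullest part by coverage was the window from 127500001, at 38.9% and 34.6% with YAP, against 32.3% and 31.8% with TAZ, and its neighbour from 127400001, at 35.4% and 31.8% with YAP, against 28.9% and 23.4% with TAZ. Both YAP libraries lay above both TAZ libraries in each. The lowest mean coverage upstream was in the window from 126800001, at 3.45% and 2.84% with YAP, against 3.42% and 3.54% with TAZ. The window from 128300001, among the poorest in strong peaks, had 7.76% and 6.71% with YAP, against 6.41% and 6.21% with TAZ.

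Beyond PVT1, over 1886 kb, deposited peaks were somewhat sparser than over the rest of the chromosome, at 0.857 times its number per Mb on average. Strong peaks per Mb were instead above it in 4 of 4 libraries, 1.27 times on average (exact sign-flip permutation p = 0.125, adjusted p = 0.148). This ratio was larger upstream (1.69), between MYC and PVT1 (4.60) and in the PVT1 stretch (1.86), each also higher in 4 of 4 libraries. The YAP excess in peak share, 0.85, was the largest of the 5 stretches. The peak share was 5.92 and 6.25 with YAP, against 5.46 and 5.02 with TAZ, a mean of 6.09 ± 0.24 against 5.24 ± 0.31 (SD, n = 2; exact permutation p = 0.333). Strong peaks numbered 31 and 32 with YAP, against 23 and 27 with TAZ, without overlap of the groups. Coverage was 11.4% and 9.44% with YAP, against 7.70% and 7.26% with TAZ, under the rest of the chromosome in 4 of 4 libraries. With 5000 strong peaks per library, the mean number of strong peaks here was the same for both antibodies. The interval ended in a full window, from 130900001, with 47.5% and 40.8% of bases covered for YAP and 36.4% and 33.5% for TAZ.

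**Figure D3:**
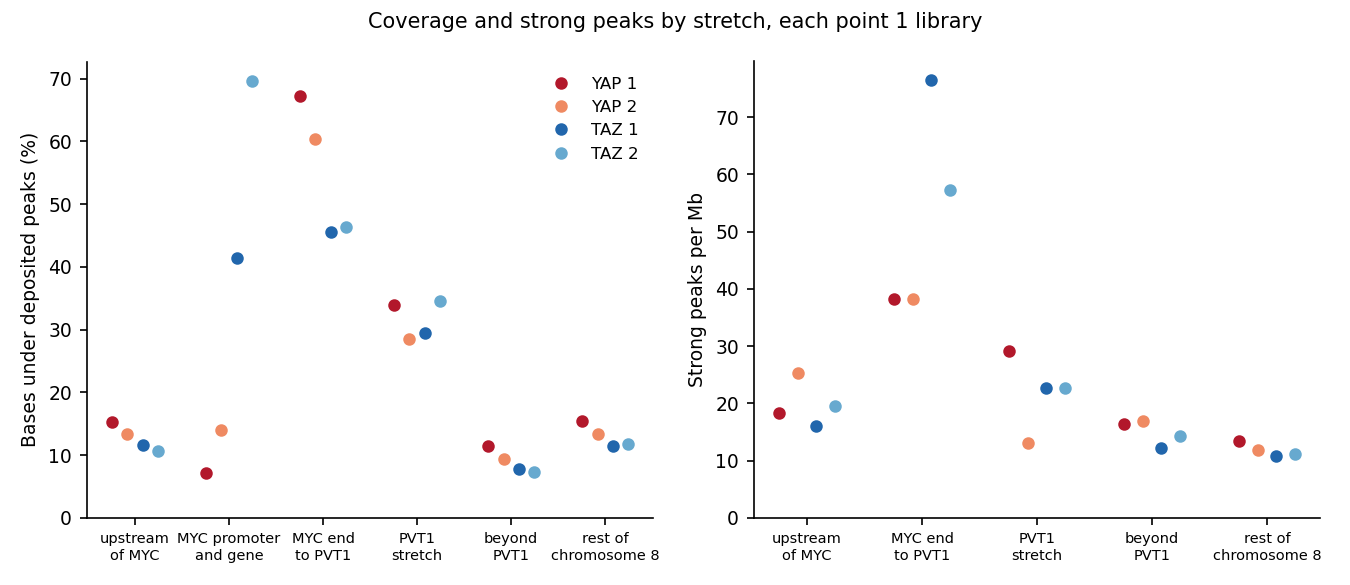
Percent of bases under deposited peaks (left) and strong peaks per Mb (right) in the stretches around MYC and over the rest of chromosome 8, each point 1 library. The space from the end of MYC to PVT1 stands highest on the right in every library and on the left in all but TAZ replicate 2. The promoter and gene, left out on the right for its short length, is covered to 7.07% and 14.0% by YAP and to 41.4% and 69.6% by TAZ.

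Over the whole interval, YAP peaks took a slightly larger part of their lists than TAZ peaks. The peak share was 17.3 and 18.3 with YAP, against 16.9 and 16.6 with TAZ, with means of 17.8 ± 0.70 and 16.8 ± 0.19 (SD, n = 2; exact two-sided permutation p = 0.333). The difference of 0.98 was 0.488 without YAP replicate 2 and 1.48 without YAP replicate 1. Restricted to q-values up to 0.01 it was -0.72, in the other direction. Over the rest of chromosome 8 the peak share was also higher for YAP, 503 and 506 against 488 and 488. Strong peaks in the interval numbered 84 and 95 with YAP, against 70 and 81 with TAZ, a difference of 14 in the means (exact permutation p = 0.333), which was 8.5 without YAP replicate 2 or without TAZ replicate 1. The median fold was 3.24 and 3.19 with YAP, against 3.26 and 3.13 with TAZ, and the groups overlapped.

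Window by window, the antibodies mostly followed each other. Over the 45 windows of 100 kb, Spearman's rho of peak numbers lay between 0.851 and 0.948 for the 6 pairs of libraries, a description over neighbouring windows of libraries that may share an input, with the highest value between the YAP libraries and the lowest between the TAZ libraries. For strong peaks, of which a window held 0 to 7, rho was lowest between the YAP libraries, at -0.0194, and reached at most 0.348, whereas over all windows of the genome it lay between 0.441 and 0.495. By peak share, both YAP libraries lay above both TAZ libraries in 20 of 45 windows (44.4%), against 30.0% of the other windows of chromosome 8 and 25.6% of all windows of the genome. Both TAZ libraries lay above both YAP libraries in 6 windows (13.3%), against 15.2% over the rest of chromosome 8 and 19.5% over the genome. The YAP windows were spread over both sides, 9 of 22 upstream and 11 of 22 downstream of the window that holds MYC. By strong peaks, YAP lay above TAZ in 5 windows (11.1%; 8.83% over the rest of chromosome 8, 5.02% over the genome) and TAZ above YAP in 3 (6.67%; 3.26% over the rest of chromosome 8, 5.18% over the genome). Counts as small as these moved with the number of strong peaks: with 50000 per library they were 15 and 0.

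The window that holds the MYC start, from 128700001 to 128800000, went the other way from the interval. It held 21 and 24 deposited peaks in YAP libraries, against 27 and 26 in TAZ libraries, although both TAZ lists are shorter. It was the only window of the 45 in which both TAZ libraries had more deposited peaks than both YAP libraries. Strong peaks numbered 3 and 4 with YAP, against 7 and 6 with TAZ. Covered length went in the opposite direction, at 49.8% and 45.5% with YAP, against 38.6% and 42.3% with TAZ. The window thus held more TAZ peaks over fewer bases. Part of the YAP coverage lay in wide peaks that were split in TAZ lists, as between MYC and PVT1. The TAZ replicate 2 peak from 128726215 to 128733677 was in turn met by YAP replicate 2 peaks from 128729271 and 128731411. More TAZ peaks here are therefore not necessarily more places. The other windows with more strong peaks in both TAZ libraries were those from 127600001, with 2 and 3 for YAP against 4 and 5 for TAZ, and from 130700001, with 2 and 0 for YAP against 3 and 3 for TAZ.

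Strong peaks were most numerous, by their mean over the 4 libraries, in the MYC window and in those from 127500001, 127600001, 129000001 and 130900001, the last tied with those from 127900001 and 128200001. The window from 127500001 held 2 and 6 with YAP, against 1 and 5 with TAZ, so that the replicates of each antibody differed more than the antibodies did. That from 129000001, inside PVT1, held 4 and 2 with YAP, against 4 and 3 with TAZ, and that from 130900001 held 2 and 3 with YAP, against 3 and 3 with TAZ. The fewest lay in the windows from 126800001, 128300001, 129300001, 129700001 and 130600001, where no library had more than 1 except YAP replicate 2 with 3 in the first. The largest YAP excess without overlap was in the windows from 127800001, with 3 and 4 for YAP against 1 and 2 for TAZ, and from 129400001, with 3 and 3 against 2 and 1. The window from 130400001 held 2 and 2 against 0 and 1, as did that from 130800001.

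By its 4 strong-peak counts and 4 peak shares, the window most like that of MYC was on chromosome 6 from 131400001 to 131500000. It held 3 and 5 strong peaks for YAP and 7 and 5 for TAZ. The next were on chromosome 2 from 158700001 to 158800000, holding 3 and 5 with YAP, against 6 and 6 with TAZ, and on chromosome 7 from 82100001 to 82200000, holding 2 and 4 with YAP, against 7 and 6 with TAZ. Likeness was the Euclidean distance over these 8 values, each divided by its SD over windows.

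In the interval, merging strong peaks across libraries gave 234 regions. Of these, 156 were strong in a single library (66.7%; 78% of 61788 regions over the genome). Both YAP libraries were strong in 19 (8.12%; 6.9% over the genome, 9.42% over the rest of chromosome 8). Both TAZ libraries were strong in 19 (8.12%; 5.79% over the genome, 6.58% over the rest of chromosome 8). In all 4 libraries 1 region was strong (0.427%), against 788 over the genome (1.28%). A deposited peak of any rank was present in all 4 lists at 177 regions (75.6%), against 70.9% of such regions over the genome. All 19 regions strong in both TAZ libraries had a peak in all 4 lists (96.0% of 3577 over the genome). Of the 19 strong in both YAP libraries, 12 did (63.2%; 87.3% of 4264 over the genome). With so few regions from 1 stretch of chromosome, these shares are given as a description.

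The region strong in all 4 libraries lay inside the PVT1 stretch from 129033396 to 129035418, 286 kb after the MYC start. Its fold was 4.11 and 4.11 in YAP libraries, against 4.32 and 4.37 in TAZ libraries. It stood in the lower part of the strong peaks with YAP and higher among them with TAZ, at rank 18985 and 17863 with YAP, against 12534 and 5475 with TAZ. A neighbour from 129052786 to 129056553 was strong in both TAZ libraries and in YAP replicate 1, at a fold of 4.40 and 3.61 with YAP, against 4.31 and 4.84 with TAZ.

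A single region was YAP-selective, that is, strong in both YAP libraries with no deposited peak of either TAZ library. It lay at -1017 kb from the MYC start, from 127730842 to 127731278, with rank 4148 and 377 in the YAP lists. Over the genome 0.113% of regions were YAP-selective. There were 0 TAZ-selective regions, and 0.0178% over the genome. At 3 of the named regions strong in both YAP libraries, TAZ peaks were missing or of low rank. The region from 126586334 to 126587611 had YAP folds of 4.71 and 4.57, no peak in TAZ replicate 1 and a fold of 2.90 in TAZ replicate 2. The region from 127524777 to 127525241 had 4.95 and 4.84 for YAP, 2.67 in TAZ replicate 1 and no peak in TAZ replicate 2. The region from 129250061 to 129250500, beyond PVT1, had 3.88 and 4.60 with YAP, against 2.98 and 2.68 with TAZ. In these 3 regions both YAP values stood above every TAZ value, which the choice of strong YAP peaks favours.

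Elsewhere a TAZ library shared the YAP signal. The region from 127969650 to 127970184, at -778 kb, reached a fold of 4.30 and 6.04 with YAP, against 3.62 and 5.08 with TAZ. The value of 6.04 was the highest fold of any list in the interval, and the same replicate number was the higher one with both antibodies. The region from 128689004 to 128689461, at -59.1 kb, had 4.74 and 4.54 with YAP, against 2.68 and 4.94 with TAZ. It was strong in 3 libraries and weak, at rank 261550, in TAZ replicate 1.

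The best TAZ regions were also present in the YAP lists. That from 128177645 to 128178042, at -570 kb, reached a fold of 4.05 and 3.82 with YAP, against 5.32 and 4.27 with TAZ. That from 129224085 to 129224514, at 476 kb, had 3.80 and 3.53 with YAP, against 4.93 and 4.19 with TAZ. The region from 130784155 to 130784646 had 3.23 and 3.47 with YAP, against 4.64 and 5.16 with TAZ. In these 3 regions both TAZ values lay above both YAP values, which the choice of strong TAZ peaks favours. The region from 129560662 to 129561081, at 3.43 and 4.71 with YAP, against 5.53 and 3.94 with TAZ, was strong in YAP replicate 2 as well, and the groups overlapped.

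**Figure D4:**
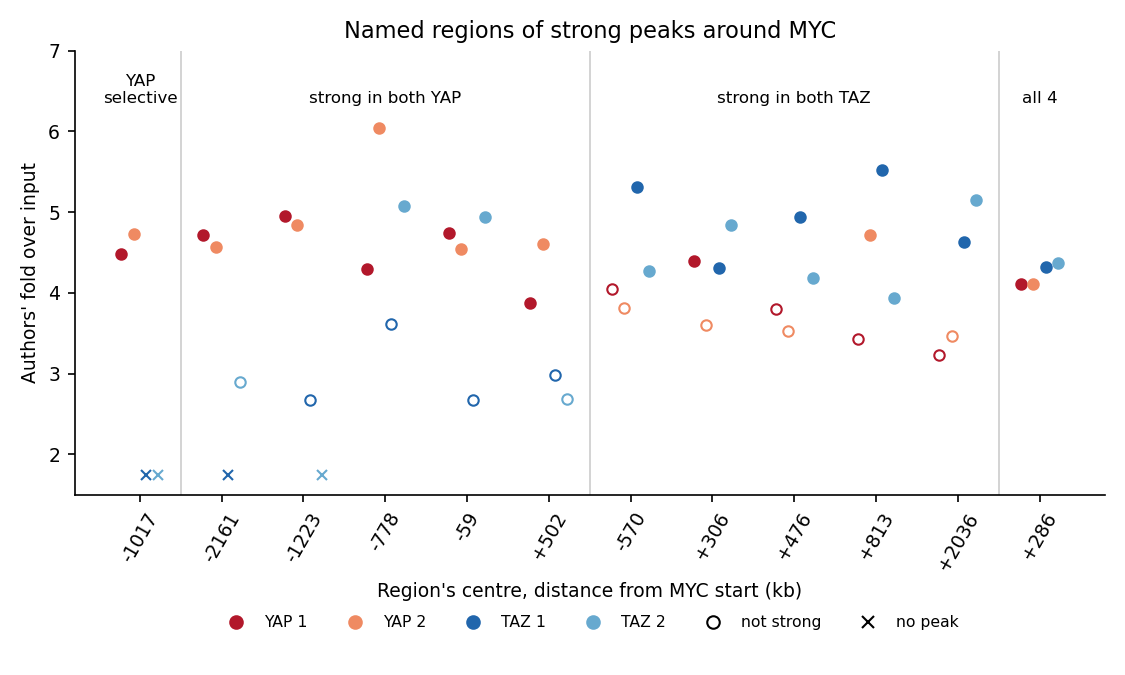
The authors' fold over input of the named regions, by distance of their centre from the MYC start in kb, 1 point per library; open circles mark peaks that were not strong and crosses a library with no peak. Among the regions shown, crosses occur with TAZ alone, and YAP peaks are present at every region strong in both TAZ libraries, with a fold of 3.23 to 4.71. Regions strong in both TAZ libraries that are not shown include lower YAP folds, such as 2.57 and 2.91 from 127645793.

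One strong peak of YAP replicate 1 stood alone. The best-ranked peak of that list in the interval, from 128205967 to 128206676, had rank 230 and a −log10 q of 15.6 at a fold of 2.0, and no other list had a peak there. The next, from 128024111 to 128024654, had rank 432 and a fold of 5.55 and was met by peaks of all 4 lists. These 2 peaks were chosen after their values were seen. The fold of the first lay below 2.80, the lower quartile of that list in the interval, and artefact-prone regions were not removed.

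Deposited peaks of any pair of libraries overlapped widely in the interval. The Jaccard index, bases covered by both libraries over bases covered by either, was 0.647 between the YAP libraries and 0.510 between the TAZ libraries. Between antibodies it was 0.557 for the replicates numbered 1, 0.516 for those numbered 2, and 0.495 and 0.556 for the crossed pairs. The mean within antibodies, 0.578, exceeded that between them, 0.531, by 0.0476. The TAZ pair lay below 3 of the 4 mixed pairs, and the difference was -0.0260 without YAP replicate 1 and -0.0161 without YAP replicate 2. Without TAZ replicate 1 it was 0.142, and without TAZ replicate 2 it was 0.0911. All 6 pairs had a higher index in the interval than over the rest of chromosome 8, where the means were 0.527 within and 0.485 between antibodies. In shares of peaks, 73.9% of the YAP replicate 1 peaks met a TAZ replicate 1 peak, and 92.7% of the TAZ replicate 1 peaks met a YAP replicate 1 peak. Over the rest of chromosome 8 these shares were 69.3% and 87.7%. Of the TAZ replicate 1 peaks in the interval, 75.2% met a peak of TAZ replicate 2. These shares also follow list length, as the YAP replicate 1 list is the longest and the TAZ replicate 2 list the shortest.

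Merging all deposited peaks of the interval gave 733 regions. A peak of all 4 lists was present in 362 (49.4%; 40.1% over the rest of chromosome 8). Peaks of both YAP lists and no TAZ list made up 58 (7.91%; 6.87% over the genome), 30 upstream of MYC and 25 beyond PVT1. Peaks of both TAZ lists and no YAP list made up 4 (0.546%; 1.44% over the genome), 3 upstream and 1 beyond PVT1. With lists cut to equal length there were 36 such YAP regions and 6 such TAZ regions. The best of the 4 TAZ regions, from 127921494 to 127921989, reached a fold of 3.89 and 3.23. No region of either kind lay between MYC and PVT1, but only 9 merged regions lay there, too few to tell this from the genome shares.

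Against the rest of chromosome 8, the interval was richer in strong peaks with both antibodies, but not in covered bases. Its coverage was 0.992 times that of the rest of the chromosome on average, higher in 2 of 4 libraries (exact two-sided sign-flip permutation p = 0.75). Its median peak width was 0.888 times that of the rest, lower in 4 of 4 libraries (exact p = 0.125). It held 18.7 and 21.1 strong peaks per Mb for YAP and 15.6 and 18.0 for TAZ, where the rest of the chromosome held 13.3 and 11.8 with YAP, against 10.7 and 11.2 with TAZ. The ratio was 1.56 on average, with a mean log2 ratio of 0.64 ± 0.16 (SD, n = 4), higher in 4 of 4 libraries (exact two-sided sign-flip permutation p = 0.125). The length of the rest of the chromosome includes gaps in the assembly. Over windows of 100 kb with any peak, the mean number of strong peaks was 1.87 and 2.11 in the interval for YAP and 1.56 and 1.80 for TAZ. In the other such windows of the chromosome it was 1.37 and 1.21 with YAP, against 1.10 and 1.14 with TAZ. Over the rest of the genome, strong peaks numbered 6.57 to 6.58 per Mb in each library, so the rest of chromosome 8 stood above it too.

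Confidence at a given fold was also higher in the interval. Among peaks with a fold of 3 to 3.5, the median −log10 p was 6.62 and 5.36 with YAP, against 5.01 and 5.09 with TAZ, and over the rest of the chromosome it was 6.21 and 5.21 with YAP, against 4.76 and 4.84 with TAZ. The difference averaged 0.26 ± 0.11 (SD, n = 4) and was positive in 4 of 4 libraries (exact sign-flip permutation p = 0.125). More reads at the same fold give a higher −log10 p, and strong peaks were chosen by a measure that rises with it. The part of this in the counts of strong peaks was not tested, and DNA copy number was not measured here. The share of all deposited peaks, strong ones included, with a fold of at least 4 was 13.9% and 12.9% in the interval for YAP. It was 12.2% and 9.09% for TAZ. Over the rest of the chromosome it was 9.43% and 7.33% with YAP, against 9.21% and 5.87% with TAZ, lower in 4 of 4 libraries. The part of read number or peak width in this share was not tested.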

How the data were processed

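ChIP-seq peak lists of 4 libraries from H1299 cells were analysed. The submitters' processing notes name MACS2, Bowtie2, cutadapt, SAMtools and build hg19, without versions or thresholds. Each list holds broad peaks of 1 library over input. The peak names point to 1 common input and the list names to different ones, so which was used is unsettled. Each deposited peak has the authors' fold (ratio of ChIP to input), −log10 p and −log10 q; the deposited score, a rounded-down multiple of −log10 q, was not used. Lists give no read totals, so depth is unknown.

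Peaks on chromosomes 1 to 22 and X were kept and assigned by midpoint. Strong peaks were the 20000 with the highest −log10 q, with ties broken by −log10 p, then fold, then position; they were merged where they overlapped by 1 bp. Windows and regions were named by fixed rules: the MYC and PVT1 windows, the 5 fullest and 5 emptiest in strong peaks, up to 3 with the largest difference in each direction, every region strong in all 4 libraries or selective, and the 5 best others per antibody by rank sum. The rules, the interval and the stretches were chosen with earlier results of these data known. Differences were tested by exact permutation over libraries in Python 3.11.15 with pandas 2.3.3, numpy 2.4.6 and scipy 1.17.1, after a check on simulated lists. The planned test of fold at the promoter had no YAP value, so presence of a peak was tested. No hg19 annotation was used, so exons and other genes were not placed. Comparisons of single stretches with the chromosome, merged deposited peaks and coverage by stretch were added after seeing the data. Gene names and order came from the RefSeq table of another build. No artefact-prone regions were removed. Alternatives covered ranking, thresholds, list length, window size, overlap, replicate block and each library left out.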

Additional observations from a re-analysis of the deposited data

How the results depend on the processing

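Of 237 alternatives over 35 results, 171 kept their direction or, for counts, stayed within 1.5 times, 50 moved and 16 changed direction. The 171 include every alternative with the replicate number as a block, whose value was fixed by arithmetic. The causes were not tested. Keeping direction did not mean keeping size: at a fold of at least 4 the peak share difference was 4.42 in the interval and 3.51 upstream, and with 50000 strong peaks the interval differed by 42. Values are YAP minus TAZ unless they are counts. At q-values up to 0.01 the peak share changed to -0.72 in the interval and -0.52 upstream, and the median fold to -0.0152. At a fold of at least 4 the peak share was 0.138 in the MYC promoter and gene and 0.245 in PVT1, coverage there was 3.53 and 1.07 percentage points, and the similarity within minus between antibodies was -0.0119; on strong peaks it was -0.00829. Shortened lists gave a PVT1 peak share of 0.0322 and 36 merged YAP regions. With strong peaks ranked by fold, the promoter and gene differed by 0 and PVT1 by 2, 2 windows had more YAP peaks, and 10 and 7 regions were strong in both YAP and both TAZ libraries. With 5000 strong peaks, the promoter and gene, PVT1 and the stretch beyond it differed by 0, 3 windows favoured YAP, and 3, 2 and 0 regions were strong in both YAP, both TAZ and all 4 libraries. With 50000, PVT1 differed by 0, 15 windows favoured YAP and 0 TAZ, these regions numbered 77, 59 and 15, and 2 were YAP-selective. A reciprocal overlap of 50% left 0 regions strong in all 4. Windows of 50 kb gave 7 TAZ windows by strong peaks and 13 by peak share; windows of 200 kb gave 1 YAP and 1 TAZ window by strong peaks, 13 and 1 by peak share. A promoter of 2500 bases on either side gave a difference of 0 in the share of libraries with a peak.

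Leaving out 1 library at a time gave a peak share difference of 0.488 to 1.48 in the interval, 0.127 to 0.679 upstream, -0.0517 to -0.0206 in the promoter and gene and -0.230 to -0.0123 in PVT1, and a strong-peak difference of 8.5 to 19.5 in the interval and 1 to 17 upstream. It gave a coverage difference of at least 1.77 percentage points in the interval, a median fold difference of -0.0395 to 0.0822, strong-peak differences of 0 to 1 in the promoter and gene and -3 to 2 in PVT1, and a similarity difference of -0.0260 to 0.142. Windows numbered 10 to 16 (YAP) and 5 to 8 (TAZ) by strong peaks and 7 to 12 (TAZ) by peak share. Regions strong in both YAP libraries numbered 18 to 95, in both TAZ libraries 19 to 81, in all libraries left 2 to 7, and YAP-selective ones 3 to 6; with 1 library left for an antibody, its own peaks count alone.

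The replicate numbers share only a name, since the labels tie them to no batch. With the replicate number as a block, a difference of means keeps its value by arithmetic, 0.983 for peak share and 14 for strong peaks. Only its p could change, and the smallest possible p for 2 pairs is 0.5. Depth is unknown, so the lists limit what a missing peak shows.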
